A study of Mus musculus with 9 samples.

Results

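Hox cluster genes encode the homeodomain transcription factors of the A, B, C and D clusters, and 39 of the 46078 genes in the read count table carried such a name (Hox, then the cluster letter, then digits only). BM ECs of B6 mice had been sorted as CD45-Ter119-CD31+ cells, split by Sca-1, and profiled by polyA RNA-seq with a low-input SMART-Seq v4 kit. There were 4 libraries of Sca-1+ ECs (label numbers 7, 13, 15 and 19) and 5 of Sca-1- ECs (8, 10, 14, 16 and 22), all labelled wild type with no treatment named. The titles of 4 libraries also carry the tag CD452, in 1 title without its letters (Sca-1+ 13 and Sca-1- 10, 14 and 22), those of 4 others carry wt (Sca-1+ 15 and 19, Sca-1- 8 and 16), and that of Sca-1+ 7 carries neither. What the tags mean is not given in the sources used here. With the tag as a covariate in these 8 libraries, a fit chosen after seeing the data, 12 Hox genes were higher and 1 was lower. No source used here gave age, sex, or how many mice stood behind each library, so p-values measure the spread between these libraries, which may be in part technical. Values by library follow the order of label numbers just given.

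The genes of a cluster lie side by side in the order in which they act along the body axis, so that low paralog numbers pattern anterior and high numbers posterior structures. Genes that share a paralog number in different clusters are copies of 1 ancestral gene. Adult cells keep part of the pattern laid down in the embryo, held on by Trithorax complexes and off by Polycomb complexes, and Hox proteins bind DNA together with TALE cofactors of the Pbx and Meis families. In ECs, Hoxa5 and Hoxd10 are known as factors of quiescent vessels and Hoxa9 and Hoxd3 as factors of EC activation, and in blood Hoxa9 and Hoxa10 mark stem and progenitor cells.

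Total counts were 21581653 to 25959818 per library. Ly6a, the gene for Sca-1, was at 873 to 1302 CPM in Sca-1+ and 0.240 to 1.49 CPM in Sca-1- libraries (CPM, scaled by TMM). Of 25 endothelial markers 24 were higher in Sca-1+ ECs, with summed levels of 16339.5 to 20344 CPM against 1324 to 2764 CPM. The largest part was Plvap in Sca-1+ (mean 6851 CPM) and Esam, the marker not called, in Sca-1- libraries (1030 ± 844 CPM, SD). These sums thus track few genes. Mean log2 CPM over the 25 markers was 8.47 to 8.72 in Sca-1+ and 2.77 to 4.72 in Sca-1- libraries. All 16 megakaryocyte and platelet markers were lower, with sums of 110 to 184 CPM in Sca-1+ against 27039 to 117763 CPM in Sca-1- libraries, and 14 of 16 leukocyte markers were lower (226 to 292 against 3604 to 6999 CPM). Pecam1, the gene for CD31, which platelets also carry, was at 1136 to 1755 CPM in Sca-1+ and 334 to 1701 CPM in Sca-1- libraries. Of the other marker lists, 8 of 11 erythroid genes were lower, and 3 of 10 stem and progenitor genes were higher and 3 lower. Further, 9 of 12 smooth muscle genes were higher and 1 lower, and 2 of 17 stromal genes were higher and 3 lower. Over all genes tested, 23.3% were higher and 21.4% lower. The name Sca-1- ECs is that of the labels, and megakaryocyte and platelet sums exceeded endothelial sums in every Sca-1- library. Hox levels given for this fraction are those of its whole RNA, not of endothelial cells alone. The part of these other cells in the Hox differences was not tested. In bulk libraries such as these, fewer cells of a type and less RNA per cell cannot be told apart.

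On the TMM scale, summed Hox RNA of the A, B and D clusters was higher in every Sca-1+ than in every Sca-1- library, whereas that of the C cluster overlapped. Per unit of endothelial RNA no Hox gene was called higher. The 39 genes summed to 279, 296, 247 and 256 CPM in the Sca-1+ libraries and to 62.5, 35.0, 46.1, 49.997 and 51.0 CPM in the Sca-1- libraries. These sums did not overlap, with means of 269 ± 22.2 CPM (SD, n = 4) and 48.9 ± 9.88 CPM (SD, n = 5). In all, 24 of the 39 genes passed the filter on low counts, and 14 of them were higher in Sca-1+ ECs and 1, Hoxd10, was lower (edgeR, quasi-likelihood F-test, adjusted p under 0.05). Among all 15937 genes tested, 23.3% were higher and 21.4% lower. The same 14 genes had no overlap between fractions with Sca-1+ higher, and the same 1 gene with Sca-1+ lower, against backgrounds of 24.7% and 18.8% of all genes. The median log2 fold change (Sca-1+ over Sca-1-) was 2.14 over the 24 Hox genes and 0.07 over all genes tested. Hoxa3, Hoxa6, Hoxb3, Hoxb4, Hoxb5, Hoxb6, Hoxb7 and Hoxb9 passed the filter only through their Sca-1+ libraries, and Hoxd10 only through Sca-1- libraries. These counts and the median thus rest in large part on genes admitted because 1 fraction was high. Without the filter, 15 of 35 Hox genes were higher and 1 lower, beside 14.7% and 12.7% of all genes.

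**Figure D1:**
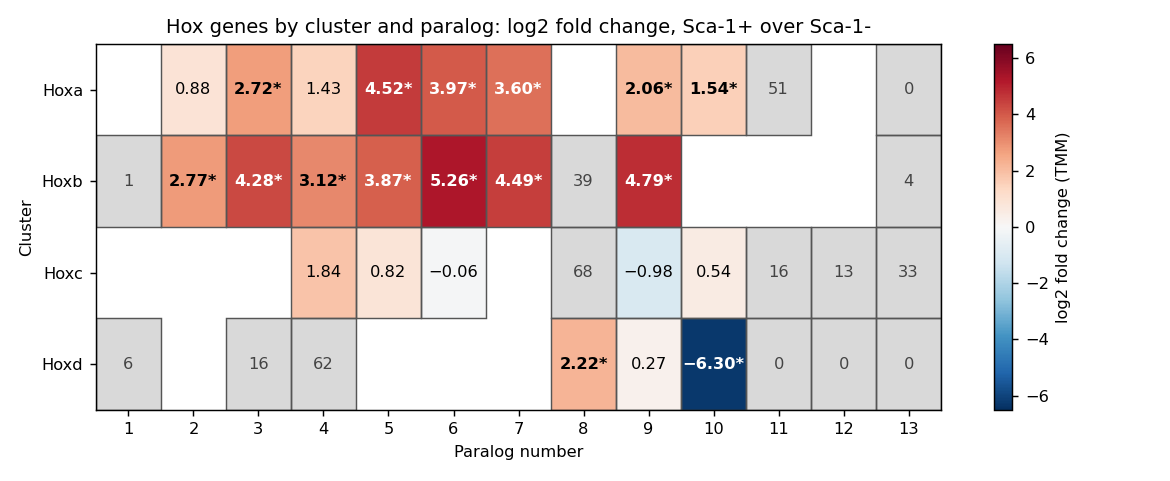
Log2 fold change of the Hox genes (Sca-1+ over Sca-1-, TMM scaling), by cluster (rows) and paralog number (columns). Stars and bold type mark an adjusted p under 0.05, grey cells hold the total count over 9 libraries of genes not tested, and unframed cells show no value. All 7 tested Hoxb genes were higher and no Hoxc gene was called on this scale. All tested Hoxb genes but Hoxb2 passed the filter on low counts only through Sca-1+ libraries. With libraries scaled to endothelial genes, 0 Hox genes were called higher.

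These directions depend on the scale. Under TMM scaling, DESeq2's size factors, upper-quartile scaling and library size alone, 13 to 15 Hox genes were higher and 1 was lower. Scaling libraries instead to 25 endothelial genes asks for Hox RNA per unit of endothelial RNA. On that scale 0 Hox genes were called higher and 12 lower, and 89.1% of all genes tested were called lower. The median over all genes was then -4.58 and that of the 24 Hox genes -2.27. Against the median of all genes, 20 of the 24 Hox genes stood above it under both TMM and endothelial scaling. A change of scaling moves most genes by a like amount, so this agreement was close to fixed in advance and is no separate support. Changes are given below on the TMM scale and read as relative to the bulk of genes. On the endothelial scale Hoxa5, Hoxb3, Hoxb6, Hoxb7 and Hoxb9 kept a positive sign without a call, with log2 fold changes of 0.03, 0.26, 0.98, 0.43 and 0.08.

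**Figure D2:**
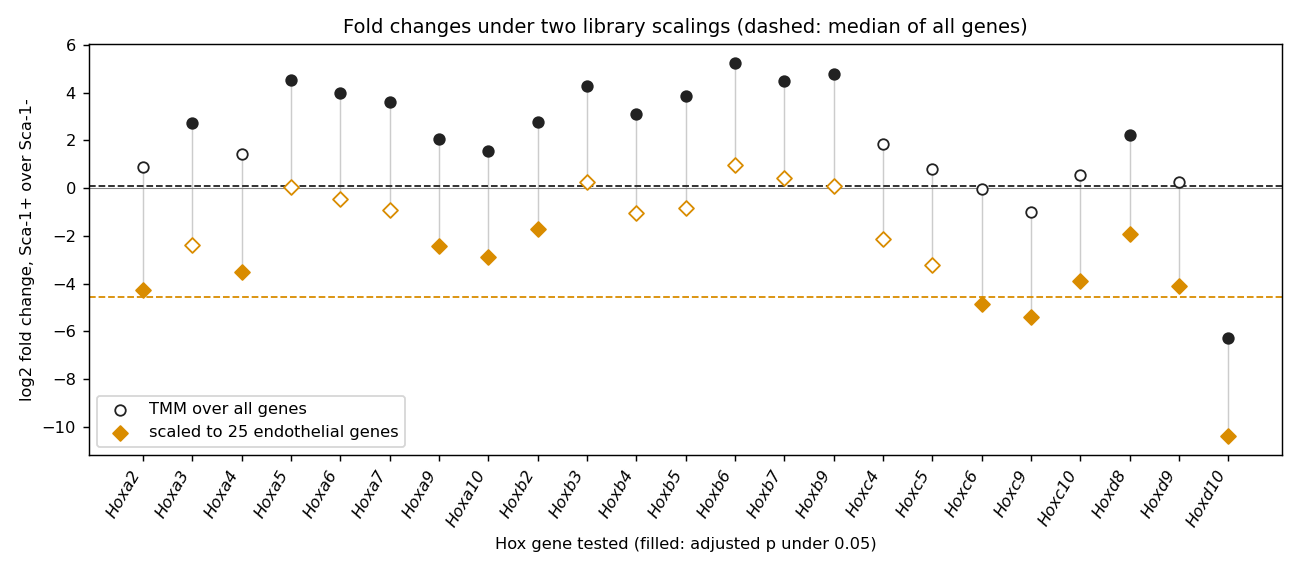
Log2 fold change (Sca-1+ over Sca-1-) of 23 tested Hox genes under TMM scaling (circles) and with libraries scaled to 25 endothelial genes (diamonds). Filled symbols have an adjusted p under 0.05 and dashed lines give the median of all genes, 0.07 and -4.58. In these fits 14 genes were called higher under TMM and 0 under endothelial scaling.

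The B cluster (chromosome 11, 96194316 to 96368256, 10 genes in mm10) moved most evenly. All 7 of its tested genes were higher in Sca-1+ ECs, beside 23.3% of all genes tested, with a median log2 fold change of 4.28. All of them but Hoxb2 passed the filter on low counts only through their Sca-1+ libraries. This count and median thus rest largely on genes admitted because that fraction was high. Its summed level was 84.7, 115, 84.6 and 87.8 CPM in Sca-1+ libraries and 8.16, 2.58, 4.66, 10.8 and 10.1 CPM in Sca-1- libraries. The means differed by 12.8-fold.

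Hoxb7, a central gene, was at 30.2, 42.0, 27.97 and 25.7 CPM in Sca-1+ libraries and at 1.02, 0, 0, 1.56 and 4.27 CPM in Sca-1- libraries. Every Sca-1+ library stood above every Sca-1- library, and libraries 10 and 14 had no Hoxb7 read. The log2 fold change was 4.49 (SE 1.09, edgeR adjusted p = 0.00713). Its neighbour Hoxb6 was at 9.87, 12.6, 11.8 and 11.3 CPM against 0.540, 0, 0, 0.530 and 0.366 CPM, the widest gap of the cluster with a log2 fold change of 5.26 (SE 0.90, edgeR adjusted p = 0.00100). Hoxb9, its posterior member, was at 7.66, 10.4, 5.35 and 6.33 CPM against 0.6002, 0.279, 0, 0 and 0.488 CPM (log2 fold change 4.79, SE 1.02, edgeR adjusted p = 0.00351). For both genes the fractions were apart in every library.

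Hoxb2, an anterior gene of the hindbrain, was the B gene with the highest level in Sca-1- ECs. It was at 25.6, 34.7, 27.7 and 27.5 CPM in Sca-1+ libraries and at 4.14, 2.30, 3.43, 7.33 and 3.95 CPM in Sca-1- libraries, with a log2 fold change of 2.77 (SE 0.34, edgeR adjusted p = 0.000152). Hoxb4, known for expanding blood stem cells when overexpressed, was at 4.59 to 6.41 CPM against 0 to 1.23 CPM (log2 fold change 3.12, edgeR adjusted p = 0.00748). Hoxb3 was at 3.10 to 4.21 CPM against 0 to 0.464 CPM (4.28, edgeR adjusted p = 0.00846). Exons of Hoxb2 and Hoxb3 share 27.3% and 52.9% of their bases with Hoxb3os on the opposite strand in the GENCODE annotation. The counting's use of strand is not given in the sources used here, so these 2 values cannot be told apart from those of the antisense transcript.

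Hoxb5 was the least stable call of the cluster. It was at 2.31, 5.82, 2.55 and 6.72 CPM in Sca-1+ libraries and at 1.5004, 0, 0, 0.0332 and 0 CPM in Sca-1- libraries, where nearly all reads came from library 8. The log2 fold change was 3.87 (SE 1.41, edgeR adjusted p = 0.0458). Without library 8 it was 8.10 with an adjusted p under the threshold, and without any other single library the edgeR adjusted p was between 0.0654 and 0.0983. Among the Sca-1- libraries, 8 also had the highest sums of both the stromal and the leukocyte markers, 42978 and 6999 CPM. The part of other cells in the Hoxb5 reads was not tested.

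**Figure D3:**
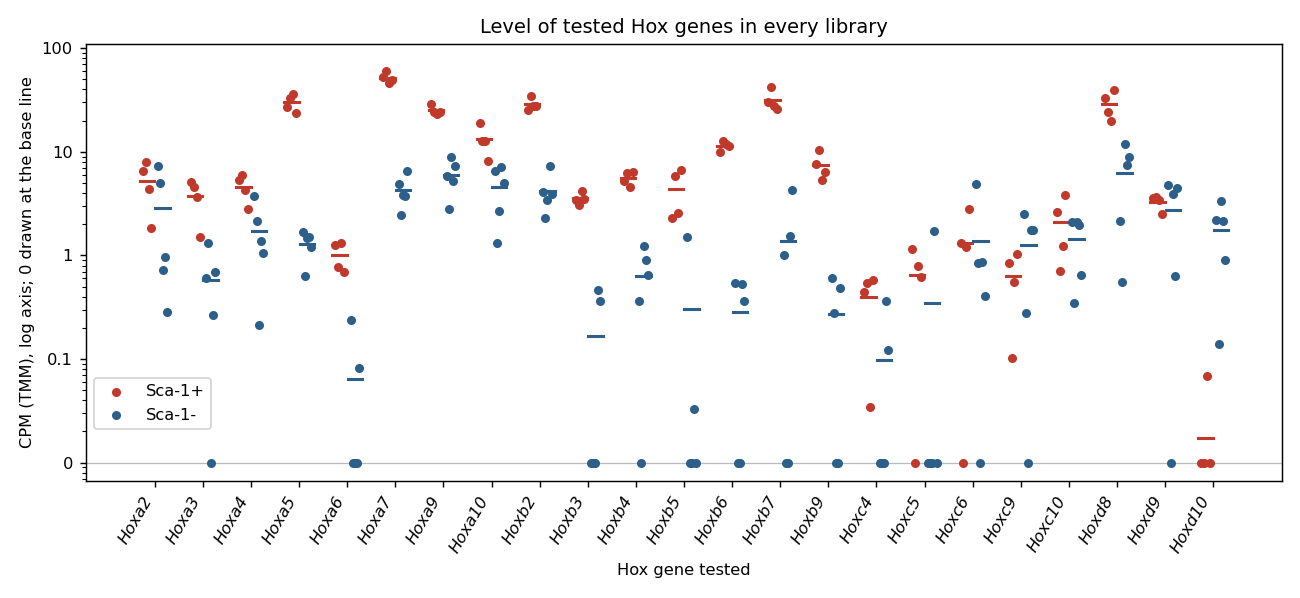
Level of 23 tested Hox genes in every library (CPM, TMM-scaled, log axis with 0 drawn at the base line), Sca-1+ in red (n = 4) and Sca-1- in blue (n = 5), with bars at the means. The Sca-1+ points of 14 genes lie above all Sca-1- points, Hoxd10 is reversed, and the remaining 8 genes plotted overlap. On the scale of endothelial genes 0 Hox genes were called higher.

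The A cluster (chromosome 6, 52155590 to 52260880, 11 genes) held the most Hox RNA in both fractions. Its sums were 150, 151, 134 and 114 CPM in Sca-1+ libraries and 34.9, 29.7, 20.01, 21.8 and 23.7 CPM in Sca-1- libraries. Of its 9 tested genes 6 were higher and 3 did not pass the test, with a median log2 fold change of 2.06. The called genes were Hoxa3, Hoxa5, Hoxa6, Hoxa7, Hoxa9 and Hoxa10, while Hoxa2 and Hoxa4 were among those not called. Of the called genes, Hoxa3 and Hoxa6 passed the filter on low counts only through their Sca-1+ libraries.

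Hoxa5 and Hoxa7 had the smallest adjusted p of all Hox genes. Hoxa5 was at 27.2, 33.4, 36.1 and 23.9 CPM in Sca-1+ libraries and at 1.68, 0.628, 1.48, 1.49 and 1.22 CPM in Sca-1- libraries. The libraries within each fraction lay close together, and the log2 fold change was 4.52 (SE 0.33, edgeR adjusted p = 1.63e-05), or 23.0-fold. Hoxa7 was at 52.7, 59.7, 46.2 and 49.5 CPM against 4.86, 2.44, 3.81, 3.75 and 6.55 CPM (log2 fold change 3.60, SE 0.29, edgeR adjusted p = 2.38e-05). It had the highest CPM of any Hox gene in Sca-1+ ECs. Hoxaas3 shares 20.4% of the exon bases of Hoxa7 on the opposite strand, so the 2 cannot be fully told apart, and Hoxaas3 itself was not called (log2 fold change 1.34, edgeR adjusted p = 0.0902). Hoxa6, between both, was at 0.695 to 1.31 CPM against 0 to 0.240 CPM (log2 fold change 3.97, edgeR adjusted p = 0.00950).

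The posterior members differed less. Hoxa9 was at 29.1, 24.3, 23.1 and 24.3 CPM in Sca-1+ libraries and at 5.82, 2.79, 8.94, 5.24 and 7.32 CPM in Sca-1- libraries, with a log2 fold change of 2.06 (SE 0.32, edgeR adjusted p = 0.000644). Hoxa10 was at 19.2, 12.7, 12.8 and 8.11 CPM against 6.54, 1.33, 2.67, 7.13 and 5.003 CPM (1.54, SE 0.49, edgeR adjusted p = 0.0261). The gap between the lowest Sca-1+ and the highest Sca-1- library was narrow for Hoxa10, and its adjusted p rose to 0.0833, 0.0539 and 0.0536 without Sca-1+ 7, Sca-1+ 15 or Sca-1- 14.

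Toward the anterior end, Hoxa3 was apart between fractions and Hoxa2 and Hoxa4 overlapped. Hoxa3 was at 5.17, 4.63, 3.66 and 1.51 CPM against 0.6002, 1.33, 0, 0.265 and 0.691 CPM (log2 fold change 2.72, SE 0.90, edgeR adjusted p = 0.0311), and the adjusted p was 0.0516 to 0.0794 without Sca-1+ 7, 13 or 15 or without Sca-1- 8, 16 or 22. With consecutive label numbers as a block in 6 libraries the edgeR adjusted p was 0.0579, against 0.0355 in the same libraries without the block. Other transcripts share 27.1% of its exon bases. Hoxa2 was at 1.85 to 8.06 CPM against 0.285 to 7.32 CPM and Hoxa4 at 2.82 to 6.02 CPM against 0.212 to 3.78 CPM, with edgeR adjusted p of 0.439 and 0.104. In Sca-1- ECs the highest values of Hoxa2 and Hoxa4 were those of libraries 8 and 10, the libraries with the highest megakaryocyte marker sums (93784 and 117763 CPM). Libraries 8 and 10 also had the highest leukocyte, erythroid and endothelial sums of this fraction and the lowest TMM factors, 0.671 and 0.581. The endothelial sum, whose largest part in this fraction was Esam, does not rank these libraries as the marker mean does. Mean log2 CPM over the endothelial markers was lowest in libraries 8 and 10, at 3.84 and 2.77. The cause of the high Hoxa2 and Hoxa4 values was not tested.

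The D cluster (chromosome 2, 74668310 to 74765142, 9 genes) showed opposite differences in neighbouring genes. Hoxd10, Hoxd9 and Hoxd8 lie in this order along the plus strand, and their RefSeq promoters are shown to set the 3 genes side by side, with that of Hoxa5 as the called gene with the smallest adjusted p. Each sequence runs from 250 bases before to 50 bases after the annotated start (GRCm38.p6), and capitals mark CpG dinucleotides. Hoxd10 is chr2:74691641-74691940 (+), Hoxd9 chr2:74697513-74697812 (+), Hoxd8 chr2:74704365-74704664 (+) and Hoxa5 chr6:52204538-52204837 (-).
Hoxd10: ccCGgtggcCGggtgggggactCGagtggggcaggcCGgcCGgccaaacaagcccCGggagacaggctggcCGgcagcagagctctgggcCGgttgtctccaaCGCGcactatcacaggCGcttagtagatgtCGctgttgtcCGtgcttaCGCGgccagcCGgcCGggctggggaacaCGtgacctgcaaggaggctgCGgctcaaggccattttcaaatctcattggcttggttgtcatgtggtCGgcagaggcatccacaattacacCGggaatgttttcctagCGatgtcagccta
Hoxd9: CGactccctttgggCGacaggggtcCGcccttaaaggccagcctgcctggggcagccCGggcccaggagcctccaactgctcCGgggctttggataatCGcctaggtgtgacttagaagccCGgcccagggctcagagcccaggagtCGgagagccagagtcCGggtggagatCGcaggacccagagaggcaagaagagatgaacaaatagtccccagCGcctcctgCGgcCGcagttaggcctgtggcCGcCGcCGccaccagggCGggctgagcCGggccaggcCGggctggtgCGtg
Hoxd8: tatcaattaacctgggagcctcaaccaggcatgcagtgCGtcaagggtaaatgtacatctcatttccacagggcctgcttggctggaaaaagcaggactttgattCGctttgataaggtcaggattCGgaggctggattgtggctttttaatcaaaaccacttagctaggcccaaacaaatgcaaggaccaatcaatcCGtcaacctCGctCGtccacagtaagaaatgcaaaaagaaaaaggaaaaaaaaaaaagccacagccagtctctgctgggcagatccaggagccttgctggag
Hoxa5: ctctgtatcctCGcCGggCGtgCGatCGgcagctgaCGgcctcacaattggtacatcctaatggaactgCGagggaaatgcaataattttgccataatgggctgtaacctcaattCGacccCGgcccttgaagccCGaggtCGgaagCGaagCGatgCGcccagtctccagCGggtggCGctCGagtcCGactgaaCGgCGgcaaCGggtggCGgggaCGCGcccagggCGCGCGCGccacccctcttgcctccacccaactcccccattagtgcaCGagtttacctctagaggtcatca
They hold 22, 20, 6 and 29 CpG dinucleotides, against a median of 7 over 32851 RefSeq promoters of the same length and 14.5 over the 24 promoters listed for 22 Hox genes. CpG number did not follow the direction of change in these 4, as the gene that was lower and a gene that was higher both had many. The CCAAT box (CCAAT, both strands) had 1 match in the Hoxd10, Hoxd8 and Hoxa5 promoters and none in that of Hoxd9, and it was in 15 of 24 Hox promoters and 37.4% of all. The TATA box (TATAAA), a Meis and Pknox core (TGACAG) and a Pbx-Hox core (TGATNNAT) had no match in the 4 sequences and were in 4, 2 and 4 of the 24 Hox promoters against 13.6%, 19.2% and 8.85% of all. A match is a description of letters, not a bound site.

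Hoxd8 was the main D transcript. It was at 33.0, 24.1, 19.97 and 39.2 CPM in Sca-1+ libraries and at 2.16, 0.558, 12.0, 7.43 and 8.91 CPM in Sca-1- libraries, with no overlap. The log2 fold change was 2.22 (SE 0.67, edgeR adjusted p = 0.0216), and the adjusted p was 0.0548 without Sca-1+ 19. Hoxd9, the next gene upstream, was at 3.61, 3.67, 3.45 and 2.51 CPM against 4.80, 0, 3.90, 0.630 and 4.43 CPM. The Sca-1+ libraries lay inside the range of the Sca-1- libraries (log2 fold change 0.27, SE 0.94, edgeR adjusted p = 0.840), and the value was -0.11 without library 10.

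Hoxd10 was the 1 Hox gene called lower in edgeR. Its reads numbered 2 in the 4 Sca-1+ libraries, both in library 15, and 206 in the 5 Sca-1- libraries (37, 2, 80, 65 and 22). By library it was at 0, 0, 0.0690 and 0 CPM in Sca-1+ and at 2.22, 0.140, 3.39, 2.16 and 0.895 CPM in Sca-1- ECs. Library 10 of the Sca-1- ECs had 2 reads, as did Sca-1+ 15, and both counts are below the floor of 3. Their separation rests on the TMM factors, as both were at 0.081 CPM by library size alone. The ratio of pooled rates was 107, with an exact 95% interval of 29.3 to 890 that covers counting error only. The edgeR adjusted p was 0.00245. Without Sca-1- 8, 14, 16 or 22 the gene no longer passed the filter on low counts, so no test could be made. On the endothelial scale it was lower as well, where 89.1% of all genes tested were called lower. That result was close to fixed in advance and is no separate support. The adjoining posterior genes Hoxd11, Hoxd12 and Hoxd13 had no read in any library.

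The C cluster (chromosome 15, 102921103 to 103036852, 9 genes) had no call among 5 tested genes, and their median log2 fold change was 0.54. Its sums were 7.39, 1.36, 4.62 and 10.8 CPM in Sca-1+ libraries and 10.3, 1.60, 2.16, 6.93 and 3.05 CPM in Sca-1- libraries. Both fractions spanned nearly the same range, with means of 6.05 ± 4.03 CPM (SD, n = 4) and 4.80 ± 3.69 CPM (SD, n = 5). Log2 fold changes ran from -0.98 for Hoxc9 (SE 1.10, edgeR adjusted p = 0.492) to 1.84 for Hoxc4 (SE 1.13, edgeR adjusted p = 0.212). With standard errors of 0.68 to 1.61, a missing call does not show that levels were equal.

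Hoxc10, a gene of the hindlimb and lumbar region, was at 2.62, 0.714, 1.24 and 3.82 CPM against 2.10, 0.349, 2.12, 1.99 and 0.651 CPM. Hoxc6, a gene of the thorax, was at 1.33, 0, 1.21 and 2.78 CPM against 4.86, 0.837, 0, 0.862 and 0.407 CPM. Hoxc9 was at 0.851, 0.102, 0.552 and 1.04 CPM against 2.52, 0.279, 0, 1.76 and 1.75 CPM. In these genes the spread within a fraction was larger than the difference between fractions. Hoxc4 was at 0.0345 to 0.579 CPM against 0 to 0.365 CPM, and Hoxc5 was read in 3 of the 4 Sca-1+ libraries and in 1 Sca-1- library, 16, at 1.72 CPM.

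The order of the libraries by HoxC sum was compared with that by stromal markers. On average Col1a1 and Col1a2 (12148 and 5588 CPM) made up most of the stromal sum in Sca-1- libraries. In Sca-1+ libraries the largest part was Cxcl12 (mean 915 CPM), so the sum tracks few genes. Among the Sca-1+ libraries, 13 had both the lowest HoxC sum and the lowest sum of the 18 stromal and skeletal markers (733 CPM, against 1514 to 2743 CPM in the others). Among the Sca-1- libraries, 8 was highest in both (42978 CPM) and 16 came next in both (19536 CPM). The orders differed elsewhere. In Sca-1+ ECs the highest HoxC sum was that of 19 and the highest stromal sum that of 7 (2225 and 2743 CPM of stromal markers). In Sca-1- ECs the lowest HoxC sum was that of 10 and the lowest stromal sum that of 14 (9483 and 3319.7 CPM of stromal markers). Of the stromal markers tested, 2 of 17 were higher and 3 lower in Sca-1+ ECs, beside 23.3% and 21.4% of all genes tested. Stromal sums were 733 to 2743 CPM against 3319.7 to 42978 CPM. Twist2 alone was too low to test, with 51 reads, none in a Sca-1- library. Sca-1+ 13 had the highest HoxB sum. The part of stromal RNA in the HoxC values was not tested.

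**Figure D4:**
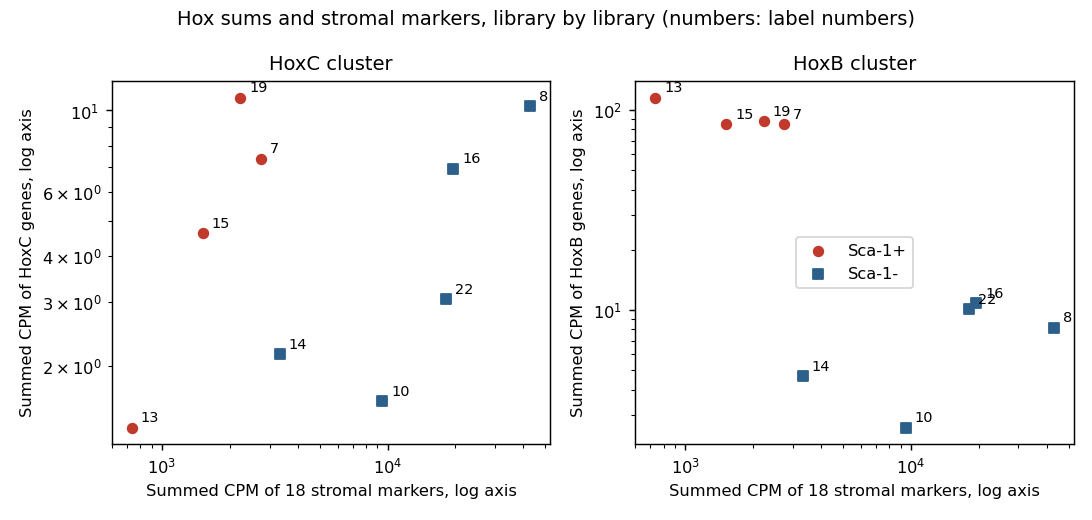
Summed CPM of the HoxC genes (left) and HoxB genes (right) against the summed CPM of 18 stromal markers in each library, both on log axes, with Sca-1+ as circles, Sca-1- as squares and label numbers beside the points. Sca-1+ 13 is lowest and Sca-1- 8 highest for stromal markers, whose sum in Sca-1- libraries is on average mostly Col1a1 and Col1a2. HoxC sums overlap between fractions at 1.36 to 10.8 and 1.60 to 10.3 CPM, while HoxB sums are 84.6 to 115 and 2.58 to 10.8 CPM on the TMM scale.

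By paralog number, mean summed CPM was 9.47-fold higher in Sca-1+ ECs for the central genes, 3.43-fold for the anterior and 2.93-fold for the posterior genes. Paralogs 4 to 8 made up 64.4 ± 2.32% of summed Hox CPM in Sca-1+ libraries and 36.5 ± 10.3% in Sca-1- libraries (SD, n = 4 and 5). Posterior paralogs 9 to 13 made up 19.7 ± 2.40% and 35.6 ± 12.0%, and anterior paralogs 1 to 3 made up 15.97 ± 1.63% and 27.9 ± 21.8%. The anterior share in Sca-1- ECs was carried by library 10, which alone was at 65.7%. The other 4 Sca-1- libraries were at 13.2 to 25.7%, with a mean of 18.5 ± 6.08%, and their central and posterior shares averaged 40.7 ± 4.76% and 40.8 ± 3.30% (SD, n = 4). These shares do not depend on library scaling, but they weight genes by their length and level. Of the tested genes, 3 of 5 anterior, 8 of 12 central and 3 of 7 posterior members were higher, and the 1 lower gene was posterior. Over all genes tested, 23.3% were higher and 21.4% lower. Hoxa3 and Hoxb3 (anterior), Hoxa6, Hoxb4, Hoxb5, Hoxb6 and Hoxb7 (central) and Hoxb9 (posterior) passed the filter only through Sca-1+ libraries. The counts by range thus rest in large part on genes admitted because that fraction was high. Copies of 1 paralog group did not always move alike. Both members of group 7 were higher, at 3.60 and 4.49. In group 9, Hoxa9 and Hoxb9 were higher while Hoxc9 and Hoxd9 were not called. In group 10 Hoxa10 was higher, Hoxc10 was not called and Hoxd10 was lower, so that log2 fold changes ran from -6.30 to 1.54.

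**Figure D5:**
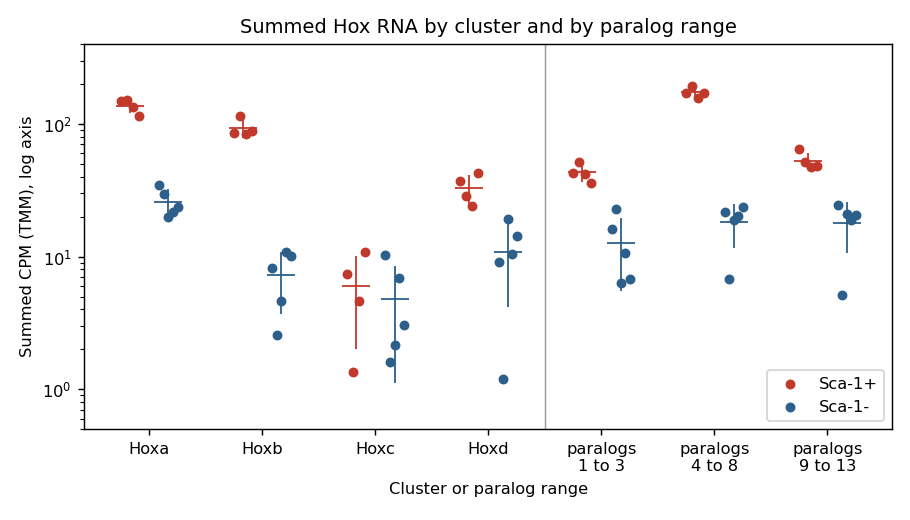
Summed CPM (TMM-scaled, log axis) of the Hox genes of each cluster and each paralog range in every library, Sca-1+ in red (n = 4) and Sca-1- in blue (n = 5), with means and SD. The fractions are apart for Hoxa, Hoxb and Hoxd and for all 3 paralog ranges and overlap for Hoxc on this scale. With libraries scaled to endothelial genes, 0 Hox genes were called higher.

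Levels between genes were compared as CPM per kb of exon. In Sca-1+ ECs the order was Hoxb7 (20.4 ± 4.70), Hoxa7 (18.1 ± 2.01), Hoxa5 (16.1 ± 2.98), Hoxd8 (10.6 ± 3.16) and Hoxb2 (8.28 ± 1.15 CPM per kb, SD, n = 4). The top 3 lay within their SD of each other. In the Sca-1- libraries, whose RNA was not endothelial alone, the highest included Hoxd8 (2.26 ± 1.73), Hoxa2 (1.61 ± 1.77), Hoxa7 (1.49 ± 0.532) and Hoxa10 (1.39 ± 0.761 CPM per kb, SD, n = 5). These did not differ beyond their spread. Hoxb7 was in place 11 there.

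The other 15 genes were too low to test. Hoxa13, Hoxd11, Hoxd12 and Hoxd13 had no read, Hoxb1 had 1, Hoxb13 had 4 and Hoxd1 had 6. Hoxb8 had 39 reads in the Sca-1+ libraries, in all 4 of them, and 0 in the Sca-1- libraries, at least 2.32-fold higher against a floor of 3 counts per library. Hoxc13 had 33 reads, 24 in Sca-1+ 19 and 9 in Sca-1+ 15, and without library 19 the Sca-1+ mean was 0.103 CPM, below the floor of 0.148 CPM. Hoxc11 and Hoxc12 had 16 and 13 reads, all in Sca-1+ libraries. Hoxd4 had 57 reads in Sca-1+ and 5 in Sca-1- libraries, a ratio of 11.0 (exact 95% interval 4.43 to 35.1, counting error only), and shares 52.3% of its exon bases with Hoxd3 and antisense transcripts. Hoxa11 had 51 reads, Hoxc8 had 68 and Hoxd3 had 16, in both fractions. For a gene with no read in a library, 3 counts correspond to 0.0995 to 0.209 CPM, and lower levels were not detectable.

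Of the 9 tested Hox cofactors of the TALE family, 2 were higher and 2 lower in Sca-1+ ECs, beside 23.3% and 21.4% of all genes tested. Meis1, the cofactor of Hoxa9 in blood stem cells and leukemia, averaged 0.728 ± 0.387 CPM over the 4 Sca-1+ libraries and 89.1 ± 40.6 CPM over the 5 Sca-1- libraries (SD). Its log2 fold change was -6.92 (edgeR adjusted p = 2.39e-05). Meis2 was at 9.42 ± 3.74 against 1.46 ± 0.899 CPM (2.68, edgeR adjusted p = 0.00374). Pbx3 was at 13.5 ± 3.99 against 6.47 ± 2.00 CPM (1.06, edgeR adjusted p = 0.0306), a call that was lost without Sca-1+ 7, 13 or 19 or without Sca-1- 10 or 14 (largest adjusted p 0.0877). On the endothelial scale Meis2 and Pbx3 had negative values, -1.65 and -3.71.

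Polycomb and Trithorax genes hold Hox clusters off and on. Of 22 Polycomb genes 7 were higher and 2 lower (all genes tested: 23.3% and 21.4%), with a median log2 fold change of 0.58 (all genes: 0.07). Jarid2, a PRC2 cofactor, was at 24.7 ± 6.52 against 431 ± 372 CPM (log2 fold change -4.12, edgeR adjusted p = 0.000776). The PRC1 genes Rnf2 (0.61, edgeR adjusted p = 0.0433) and Bmi1 (0.84, edgeR adjusted p = 0.0317) were higher by small steps and kept their calls in 1 and 4 of 9 fits that left out 1 library. Of 16 Trithorax and elongation genes 1 was higher and 3 lower, with a median of -0.52. The 3 lower ones were Mllt3 (-3.36, edgeR adjusted p = 0.000443), Wdr5 (-1.10, edgeR adjusted p = 0.00878) and Psip1 (-0.76, edgeR adjusted p = 0.0327, kept in 3 of 9 such fits). The 7 higher Polycomb values turned negative on the endothelial scale.

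Retinoic acid switches on anterior Hox genes in the embryo, and Cdx factors the central ones. Cdx1, Cdx2 and Cdx4 had no read in any library. Of 11 tested genes of this list 4 were higher and 3 lower, beside 23.3% and 21.4% of all genes. Rara was at 32.8 ± 12.4 against 3.14 ± 3.76 CPM (log2 fold change 3.37, edgeR adjusted p = 0.0107). Rarg was at 15.96 ± 2.35 against 64.9 ± 52.7 CPM (-2.02, edgeR adjusted p = 0.0110), and Aldh1a1, a retinoic acid synthesis enzyme, at 4.003 ± 2.28 against 70.3 ± 51.6 CPM (-4.13, edgeR adjusted p = 0.000838). The 4 higher genes turned negative on the endothelial scale.

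Of 7 tested noncoding transcripts inside the clusters, 4 were higher and 1 lower in Sca-1+ ECs, against backgrounds of 23.3% and 21.4%. Hoxb3os was at 25.9 ± 2.99 against 3.13 ± 1.37 CPM (log2 fold change 3.04, edgeR adjusted p = 0.000113) and Hoxd3os1 at 15.5 ± 3.60 against 1.59 ± 0.443 CPM (3.27, edgeR adjusted p = 7.40e-05). Hotairm1 was lower, at 17.2 ± 2.49 against 50.6 ± 38.4 CPM (-1.55, edgeR adjusted p = 0.0408), with overlapping libraries and a call kept in 3 of 9 fits that left out 1 library. Halr1 (8.35, edgeR adjusted p = 4.25e-05) and Hoxb5os, which had 71 reads in Sca-1+ and 0 in Sca-1- libraries, were named after their values were seen. Both stayed higher on the endothelial scale. Hoxb3os and Hoxd3os1 did not, and Hotair and Hottip had no read.

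Of 18 tested genes that flank the clusters, 4 were higher and 6 lower, beside 23.3% and 21.4% of all genes, with a median log2 fold change of -0.18. Skap2, beside the A cluster, was at 125 ± 7.18 against 904 ± 498 CPM (-2.85, edgeR adjusted p = 0.000475). Nfe2 (-9.56, edgeR adjusted p = 5.02e-05), a megakaryocyte transcription factor, and Copz1 (-1.45, edgeR adjusted p = 0.000258) lie near the C cluster and were lower. Nfe2 is also on the megakaryocyte list, whose 16 genes were all lower.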

How the data were processed

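RNA was made into cDNA libraries with a low-input SMART-Seq v4 kit. The authors deposited unnormalized whole-number read counts for each gene in the 9 libraries, and the submitters' processing notes name STAR, featureCounts and mm10. Versions and the use of strand are not given in the sources used here. Reads carried no molecular identifiers, so intervals and floors cover counting error only. Groups came from the labels.

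Counts were fitted in R 4.3.3 with edgeR 4.0.16: filterByExpr (minimum count 10, minimum total 15), TMM scaling, and the two-sided quasi-likelihood F-test of Sca-1+ against Sca-1- ECs over all genes, with Benjamini-Hochberg adjustment and a threshold of 0.05. The fit was tested on simulated counts. Standard errors came from the F statistic. CPM used TMM-scaled library sizes. DESeq2 1.42.0 and limma 3.58.1 were alternatives, as were other scalings, no filter, leaving out each library, and, added after seeing the data, the title tag as a covariate. Library pairs within a fraction differed by more than sampling noise. Hox genes are described by library or by count, and 1 is not reported here. From each list the 3 called genes with the highest mean CPM were named, unless stated. The Hox genes and all lists were chosen with earlier results of these data known. GENCODE M21 (GRCm38, the build of mm10) gave positions and shared exon bases, and matched 45143 of 46078 identifiers. Promoters came from RefSeq (GRCm38.p6), which listed none for 17 of the 39 genes. Of the listed symbols Prac1, Prac2 and Lnpk did not match the table.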

Additional observations from a re-analysis of the deposited data

Results flagged for a closer look

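In 58 groups of 4 or 5 values (24 Hox genes and 5 sums in each fraction), a single library stood well apart in 6. Chance alone does so in about 1 in 20 where values follow a normal curve. That rate does not hold for groups with tied zeros, such as Hoxc5 and Hoxd10 below, where any read in 1 library stands apart. The sums also contain the genes looked at, so the groups are not independent. Log2 CPM of Hoxb5 was 0.66 in Sca-1- 8 against -3.63 to -3.13 in the other Sca-1- libraries. Log2 CPM of Hoxc5 was 0.85 in Sca-1- 16 against -3.63 in the others, which had no read. In Sca-1+ ECs, log2 CPM of Hoxc4 was -3.12 in library 15 against -0.93 to -0.60, and that of Hoxd9 was 1.37 in library 19 against 1.82 to 1.91. Log2 CPM of Hoxd10 was -2.74 in Sca-1+ 15, from 2 reads, against -3.63 in the libraries with none. The HoxB sum was 115 CPM in Sca-1+ 13 against 84.6 to 87.8 CPM in the other Sca-1+ libraries, and it was above every Sca-1- library in each of them.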

How the results depend on the processing

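Hox genes higher in Sca-1+ numbered 14 and all genes called 7137. With libraries scaled to endothelial genes 0 Hox genes were called higher, 12 were called lower and 14402 genes were called in all. On that scale the sign turned for Hoxa2 (-4.29), Hoxa3 (-2.40), Hoxa4 (-3.50), Hoxa6 (-0.45), Hoxa7 (-0.91), Hoxa9 (-2.41), Hoxa10 (-2.90), Hoxb2 (-1.70), Hoxb4 (-1.04), Hoxb5 (-0.84), Hoxc4 (-2.14), Hoxc5 (-3.22), Hoxc10 (-3.88), Hoxd8 (-1.93) and Hoxd9 (-4.08). The uncalled Hoxc6 turned to 0.56 with library size only, 0.13 in limma voom, 0.36 without Sca-1+ 13 and 1.22 without Sca-1- 8, in a leave-one-out range of -0.71 to 1.22. Hoxd9 turned to -0.11 without Sca-1- 10, in a range of -0.11 to 0.51. DESeq2's test called 2 Hox genes lower. Leaving out 1 library gave 11 to 13 higher Hox genes, 0 to 1 lower, and 5957 to 6969 genes in all, and 10 of the 14 higher genes kept their call in all 9 of these fits. Consecutive label numbers used as a replicate block gave 9 higher Hox genes and 4340 genes called, against 10 and 5360 in the same 6 libraries without the block, and Hoxc10 at -0.64 and -0.44. Deviations of these pairs correlated at 0.147, 0.148 and 0.042, below 0.1 for 15 and 16, and each of these libraries correlated best with its partner. The labels do not state pairs, and the main fit did not use them. These correlations do not show that pairs are absent, so the main p-values leave out any pairing. The titles of 15 and 16 share a further number and those of 13 and 14 the tag CD452, whereas 7 and 8 share neither. Hoxa3 lost its call under the block only (adjusted p 0.0579 against 0.0355 without it), and Hoxa6, Hoxa10, Hoxb5 and Hoxd8 lost theirs in both fits of these 6 libraries (blocked 0.0796, 0.0640, 0.148 and 0.0814). With the tag in the title as a covariate in the 8 libraries that carry one, an alternative chosen after seeing the data, 12 Hox genes were higher, 1 was lower and 5389 genes were called. Hoxa3, Hoxa10 and Hoxd8 then lost their calls (adjusted p 0.0901, 0.0933 and 0.0738), and the uncalled Hoxc5 and Hoxc10 turned to -0.28 and -0.029. The cause of these shifts was not tested. Against the median of all genes, the Hox median was higher under all 20 alternatives. For the changes of scaling this was close to fixed in advance, and all alternatives reuse the same libraries, so they are not independent checks. In Sca-1- ECs many Hox genes had fewer than 10 reads in a library, which limits the precision of their fold changes.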
